A study of Mus musculus with 58 samples.

Results

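Interferon-stimulated genes are the genes that cells switch on when an interferon binds its receptor. The list examined here holds 40 of them, all found by symbol among the 15171 genes of the count table. Members were picked by gene name, with earlier results of these data known, so counts of members that respond are a description of this list. They were followed in bulk RNA of cortex and hippocampus at the site of surgery in 58 mice. Controlled cortical impact (TBI) or sham surgery was given at 3 months of age, and the tissue was collected 14 days later. Every mouse was on the C57BL/6 background and carried human APOE3 or APOE4 by targeted replacement of the mouse gene, which places the human isoform in each cell that would use the mouse gene, and had either both functional copies of Abca1 (Abca1+/+) or a single one (Abca1+/-). Abca1 is the transporter that loads lipid onto APOE. The sham groups are controls for the impact and not for anaesthesia or craniotomy, which all 58 mice underwent. The 4 genotypes are named E3/Abca1+/+, E3/Abca1+/-, E4/Abca1+/+ and E4/Abca1+/-, and each of the 8 groups of genotype and surgery held 6 to 8 mice of both sexes.

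Type I interferons signal through a receptor whose kinases activate a complex that holds STAT2 and IRF9 and binds interferon-stimulated response elements (ISRE) beside their target genes. Interferon gamma acts through gamma-activated sites (GAS), and many guanylate-binding and immunity-related GTPases respond to it strongly. In the brain, microglia are a main cell type showing this programme after damage or infection. The products sense foreign RNA, block steps of viral replication, restrain intracellular microbes and set the strength of further interferon signalling.

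Total counts per mouse ran from 4421308 to 37877346, and 3 counts, taken here as the floor, were worth 0.0773 to 0.685 CPM (the usual library-scaled count unit) depending on the library. The Abca1+/- libraries were deeper, with a median total of 18871446 counts against 8350021 in Abca1+/+ mice, so that copies of Abca1 and depth cannot be told apart in comparisons between these genotypes. All 8 neuronal, 8 hippocampal and 8 cortical marker genes were detected. Abca1 itself was lower in Abca1+/- than in Abca1+/+ mice on average over isoform and injury, with a log2 difference of -0.42 ± 0.09 (standard error, adjusted p = 0.000816), although in injured APOE4 mice the difference was -0.18 (adjusted p = 0.755). Usp18 and Ifi44 lay at or under the floor in 3 of 58 libraries each, and no other member did in any library. Those of Usp18 were 3 of the 8 E3/Abca1+/+ sham mice. Those of Ifi44 were 2 E3/Abca1+/+ and 1 E4/Abca1+/+ sham mice. In sham mouse 2 of the E4/Abca1+/- group the mean of log2(CPM + 1) over the 40 members was 3.16, against 2.79 in the next highest mouse of its group, and the mean over 12 microglial markers was 5.32 against 4.95. Without it 37 members were called higher after TBI in that genotype, against 38 with it.

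Promoters of many members, though not of all, carry the letters these factors read, and a few are shown here because the genes beside them span the range of the injury response. The RefSeq table of the GRCm38.p6 assembly, with 300 bases a promoter from 250 before to 50 after the start, held 33 of the 40 members. It had no entry for Dhx58, Ifi27, Iigp1, Parp14, Parp9, Rtp4 and Usp18. Each stretch below reads 5′ to 3′ on the strand of its gene, with letters that match the ISRE core GAAANNGAA on either strand in capitals, or for Irf1 the GAS letters TTCNNNGAA. The stretches lie at chr4:156200846-156200914 (minus strand) for Isg15, a ubiquitin-like modifier, chr19:34640775-34640843 (plus strand) for Ifit1, which binds foreign RNA, chr3:142620575-142620643 (plus strand) for the GTPase gene Gbp2, chr11:48871406-48871474 (minus strand) for the GTPase gene Irgm1, chr11:53769894-53769962 (plus strand) for the transcription factor gene Irf1, and chr3:89730721-89730767 (plus strand) for the RNA editing gene Adar, the last downstream of a start site.
Isg15: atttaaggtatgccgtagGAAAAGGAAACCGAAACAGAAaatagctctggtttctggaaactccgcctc
Ifit1: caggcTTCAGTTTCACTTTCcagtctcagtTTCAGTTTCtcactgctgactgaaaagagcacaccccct
Gbp2: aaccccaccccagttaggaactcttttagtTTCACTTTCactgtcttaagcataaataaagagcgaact
Irgm1: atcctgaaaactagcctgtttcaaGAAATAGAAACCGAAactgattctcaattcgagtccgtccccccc
Irf1: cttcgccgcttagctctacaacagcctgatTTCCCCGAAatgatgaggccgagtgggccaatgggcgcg
Adar: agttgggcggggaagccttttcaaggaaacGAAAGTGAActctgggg

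Isg15 and Ifit1 each had 3 ISRE matches, Irgm1 had 2 that overlap and Gbp2 had 1. Adar had matches in the promoter shown in part above and in no other of its listed promoters. The ISRE letters were present in 21 of the 33 members with a promoter (63.6%), against 8.58% of the 11751 genes of the table that had one and 8.56% of all 32851 promoters of this length. GAS letters were found in 9 of 33 members (27.3%), against 8.11% of genes of the table and 8.3% of all promoters. An ISRE and a GAS match overlapped in 2 members, Bst2 and Ifitm3, and 9 members had neither. The averaged injury effect described below had a median log2 fold change of 1.21 over the 21 members with ISRE letters, with Adar lowest at -0.16 and Gbp2 highest at 2.19. Over the 12 members without them the median was 0.87, with a range from 0.02 for Herc6 to 2.18 for Lgals3bp. The 7 members with no promoter entry had a median of 1.51, above both, with a range from 0.72 to 1.96. Strong responders such as Irf7, Oasl2 and Lgals3bp had no ISRE letters in this window. These matches describe letters and are no measure of binding.

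Most members were expressed at low levels in sham brain. Per kilobase of exon, so that genes can be set against each other, Adar was the highest in sham mice at 33.7 CPM per kb, followed by Ifi27 at 17.5 and the entry-blocking membrane protein genes Ifitm3 at 11.7 and Ifitm2 at 10.2 CPM per kb. Ifi44 was the lowest at 0.147 CPM per kb, below the nuclear body gene Sp100 at 0.281 and Iigp1 at 0.326 CPM per kb. In injured mice Ifitm3 came first at 39.9 CPM per kb, ahead of Adar at 30.2 and Ifi27 at 29.2 CPM per kb. Gbp2 moved from rank 17 in sham mice to rank 8 and Irf7 from rank 32 to rank 23, while Herc6, whose level stayed at 1.69 and 1.73 CPM per kb, went from rank 16 to rank 30.

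**Figure D1:**
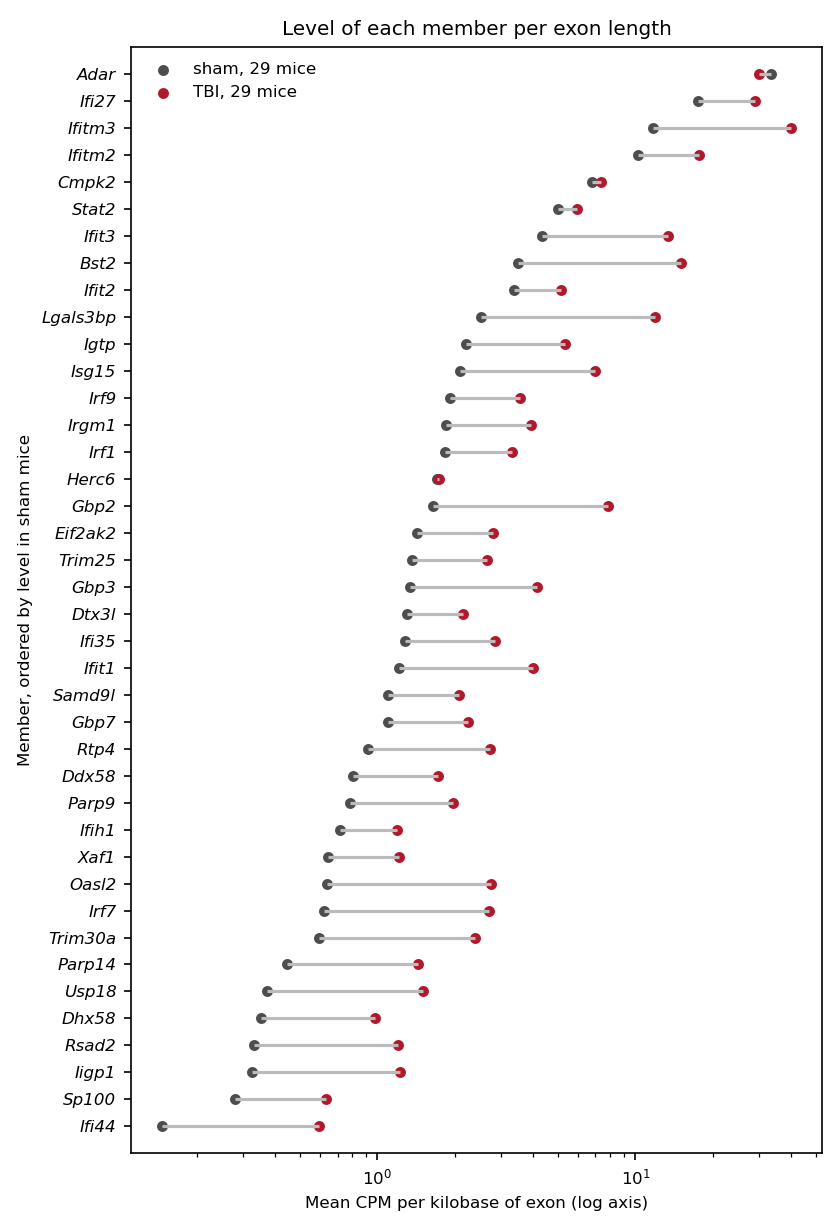
Mean level of each member in CPM per kilobase of exon (log axis) in 29 sham mice (grey) and 29 TBI mice (red), joined by a line and ordered by the sham level. The red point lies to the right of the grey one for 39 members and to the left for Adar alone.

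The first question was how the members responded to injury in each genotype. Called means an adjusted p under 0.05 over all 15171 genes in edgeR's quasi-likelihood test. TBI raised 37 of the 40 members in E3/Abca1+/+ mice, where 13.3% of all genes were called higher, and 37 in E3/Abca1+/- mice against 13.7% of all genes. It raised 37 in E4/Abca1+/+ mice against 9.24% of all genes, and 38 in E4/Abca1+/- mice against 19.7%. The median log2 fold change over the 40 members was 1.24, 1.01, 1.10 and 1.49 in these genotypes in that order, while the median over all genes lay between 0.00 and 0.03. The same 37 members were called higher in all 4 genotypes. The 3 exceptions were Adar, Herc6 and Cmpk2. Because the tissue is a mixture of cells, more cells of a type and more RNA per cell cannot be told apart.

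All injured mice lay above all sham mice of their genotype for 26 members in E3/Abca1+/+ (4.36% of all genes), 34 in E3/Abca1+/- (6.57%), 28 in E4/Abca1+/+ (3.76%) and 30 in E4/Abca1+/- mice (7.36%). Averaged over the 4 genotypes in a fit of all 58 mice, 38 members were higher, against 29% of all genes, 1 was lower, against 24.3% of all genes, and the median log2 fold change was 1.18. That average is used below as the injury effect of a member.

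**Figure D2:**
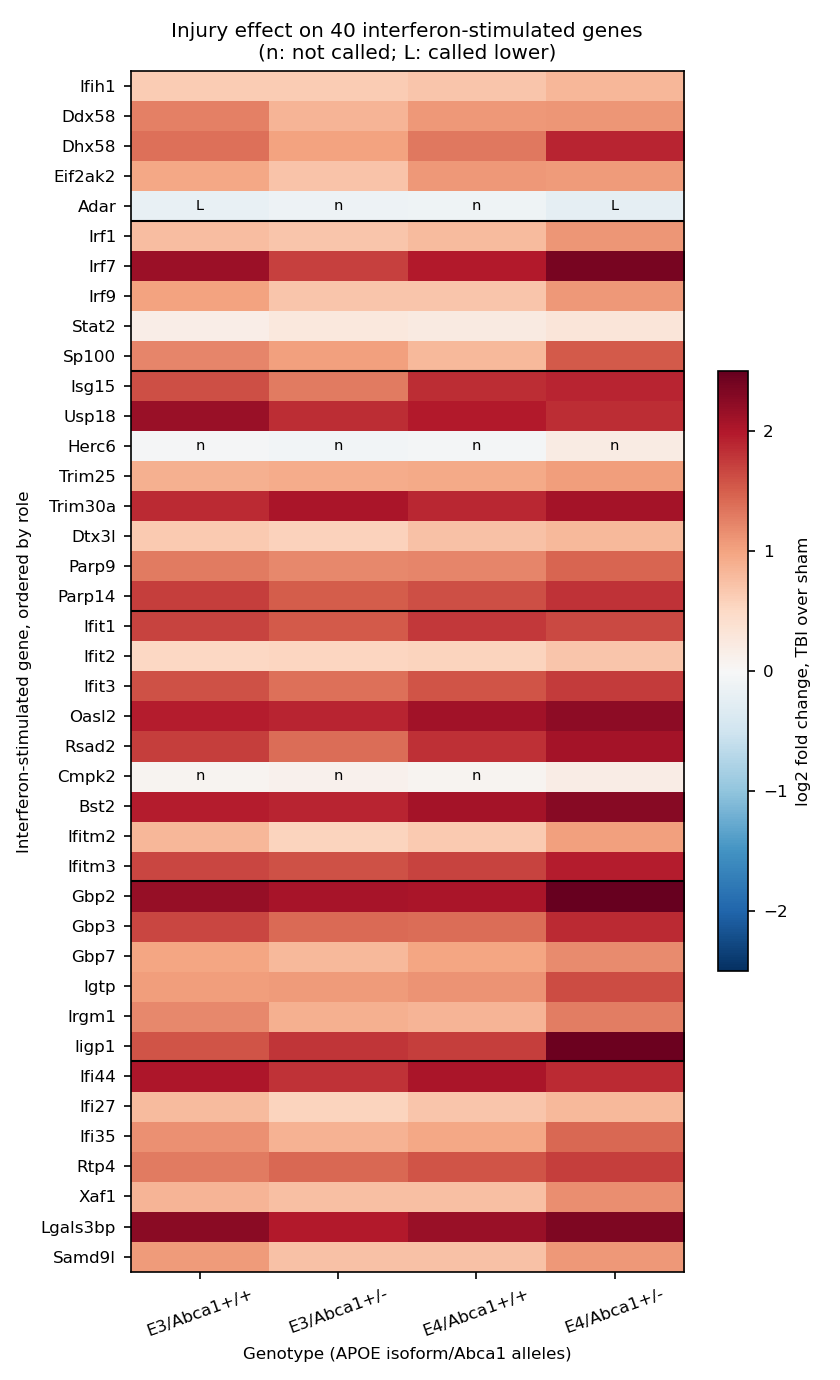
Log2 fold change of TBI over sham (colour) for the 40 members (rows, ordered by role with lines between roles) in 4 genotypes (columns), where n marks a gene not called and L a gene called lower. Red fills every role, and the pale rows are Adar, Stat2, Herc6 and Cmpk2.

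4 of the 5 sensors and RNA-binding enzymes rose after injury in every genotype. These were Ddx58 (RIG-I) and Ifih1 (MDA5), which detect foreign RNA in the cytosol, their regulator Dhx58 (LGP2) and Eif2ak2 (PKR), a kinase that halts translation when it binds such RNA. Their injury effects were 1.07, 0.70, 1.40 and 0.95. For Ddx58, listed at chr4:40203773-40239828 on the minus strand, the lowest, median and highest sham levels were 3.96, 5.34 and 7.05 CPM in E3/Abca1+/+ mice, 4.52, 5.58 and 7.43 CPM in E3/Abca1+/- mice, 4.25, 5.51 and 7.29 CPM in E4/Abca1+/+ mice and 4.61, 5.71 and 7.58 CPM in E4/Abca1+/- mice. After TBI they were 8.16, 11.5 and 20.04 CPM in E3/Abca1+/+ mice, 8.18, 10.7 and 12.4 CPM in E3/Abca1+/- mice, 8.75, 12.4 and 16.97 CPM in E4/Abca1+/+ mice and 10.4, 12.4 and 15.4 CPM in E4/Abca1+/- mice. In each genotype every injured mouse exceeded every sham mouse. The log2 fold changes of Ddx58 were 1.26 ± 0.17, 0.85 ± 0.12, 1.08 ± 0.16 and 1.10 ± 0.11 in the order of genotypes used above (± standard error here and below), with adjusted p from 1.47e-06 to 0.00027. Dhx58 was scarcer, and its sham levels were 0.826, 1.04 and 1.55 CPM in E3/Abca1+/+ mice, 0.941, 1.18 and 1.58 CPM in E3/Abca1+/- mice, 0.359, 1.18 and 2.403 CPM in E4/Abca1+/+ mice and 0.765, 0.979 and 1.47 CPM in E4/Abca1+/- mice. After TBI Dhx58 had 1.66, 2.69 and 5.73 CPM in E3/Abca1+/+ mice, 1.405, 2.44 and 2.84 CPM in E3/Abca1+/- mice, 1.41, 3.39 and 4.19 CPM in E4/Abca1+/+ mice and 2.21, 4.21 and 6.33 CPM in E4/Abca1+/- mice. The groups of Dhx58 did not overlap in E3/Abca1+/+ and E4/Abca1+/- mice, and 5 of 6 injured mice in E3/Abca1+/- and 5 of 7 in E4/Abca1+/+ lay above all sham mice. Its log2 fold changes were 1.38 ± 0.24, 1.01 ± 0.18, 1.31 ± 0.32 and 1.90 ± 0.22 (adjusted p from 6.04e-06 to 0.00973).

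Adar, which edits adenosine to inosine in double-stranded RNA and so keeps the cell's own RNA from being sensed, went the other way. It was the most abundant member of the role, with lowest, median and highest sham levels of 228, 249 and 313 CPM in E3/Abca1+/+ mice, 226, 239.7 and 278 CPM in E3/Abca1+/- mice, 276, 306 and 309.6 CPM in E4/Abca1+/+ mice and 283, 299 and 304 CPM in E4/Abca1+/- mice. TBI levels were 204, 227 and 240.1 CPM in E3/Abca1+/+ mice, 216, 228 and 245 CPM in E3/Abca1+/- mice, 245, 288 and 297 CPM in E4/Abca1+/+ mice and 227, 254 and 269.6 CPM in E4/Abca1+/- mice. Log2 fold changes were -0.18 ± 0.06, -0.12 ± 0.05, -0.11 ± 0.05 and -0.23 ± 0.04, and the fall was called in E3/Abca1+/+ mice (adjusted p = 0.0351), where 9.49% of all genes were called lower, and in E4/Abca1+/- mice (adjusted p = 0.000255), where 12.7% were. In E4/Abca1+/- mice all 8 injured mice lay below all 7 sham mice. Counts are per gene, so transcripts from the different listed starts of Adar cannot be told apart. Neuronal marker genes were also lower after TBI, 7 of 8 of them in the averaged fit with a median log2 fold change of -0.20, next to -0.16 for Adar, as were 6 of 8 cortical markers, and their part in the change of Adar was not tested.

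All 5 transcription factors rose in every genotype, by very different amounts. Irf7, the factor that amplifies type I interferon production, had the largest effect of them (2.05) and Stat2, a subunit of the complex that binds ISRE, the smallest (0.24). Irf1, an early target of interferon gamma, rose by 0.84, Irf9, the DNA-binding subunit of the STAT complex, by 0.87, and Sp100, a component of nuclear bodies, by 1.14. In sham mice Irf7 (chr7:141262706-141266481, minus strand) had lowest, median and highest levels of 1.69, 2.11 and 3.304 CPM in E3/Abca1+/+ mice, 1.33, 2.28 and 2.59 CPM in E3/Abca1+/- mice, 1.197, 2.51 and 4.205 CPM in E4/Abca1+/+ mice and 1.65, 2.84 and 3.54 CPM in E4/Abca1+/- mice. The injured mice had 3.804, 9.001 and 15.2 CPM in E3/Abca1+/+ mice, 5.57, 7.03 and 8.95 CPM in E3/Abca1+/- mice, 4.77, 11.1 and 14.97 CPM in E4/Abca1+/+ mice and 4.42, 14.7 and 22.2 CPM in E4/Abca1+/- mice. No injured mouse overlapped with the sham mice of its genotype, and the E4/Abca1+/- injured mice spread most widely. Log2 fold changes of Irf7 were 2.14 ± 0.25, 1.71 ± 0.15, 1.99 ± 0.28 and 2.37 ± 0.30 (adjusted p from 6.2e-07 to 0.000214). Sp100 had 1.08, 2.18 and 2.86 CPM in E3/Abca1+/+ mice, 1.802, 2.17 and 2.63 CPM in E3/Abca1+/- mice, 1.17, 2.51 and 3.09 CPM in E4/Abca1+/+ mice and 1.53, 1.96 and 2.47 CPM in E4/Abca1+/- mice in the sham groups. It reached 2.99, 4.74 and 6.61 CPM in E3/Abca1+/+ mice, 3.12, 4.69 and 4.97 CPM in E3/Abca1+/- mice, 2.83, 4.04 and 4.94 CPM in E4/Abca1+/+ mice and 3.89, 5.84 and 7.78 CPM in E4/Abca1+/- mice after TBI. Its groups were separate except in E4/Abca1+/+ mice, where 6 of 7 injured mice lay above all sham mice, and its log2 fold changes were 1.22 ± 0.21, 1.02 ± 0.14, 0.81 ± 0.20 and 1.53 ± 0.17 (adjusted p from 3e-06 to 0.0112). The rise of Stat2 was small in every genotype, 0.17 ± 0.06, 0.26 ± 0.06, 0.23 ± 0.07 and 0.31 ± 0.05 (adjusted p from 0.000202 to 0.0391), and its groups overlapped in 3 of 4 genotypes.

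The 8 members of the ISG15 system, ubiquitin ligases and ADP-ribosyltransferases were split, with 7 called higher in every genotype and Herc6 in none. Isg15 is the modifier itself (1.66), and Usp18 removes it from proteins and damps receptor signalling (1.96). Trim30a (1.97) and Trim25 (0.95), the latter a ligase that activates RIG-I, belong to the tripartite motif family. Dtx3l (0.70) is a ligase that works as a pair with Parp9 (1.30), and Parp14 (1.66) transfers ADP-ribose. The annotated ends of Dtx3l and Parp9 overlap on opposite strands, and whether the counting used strand is not given in the sources used here, so reads from that overlap cannot be told apart.

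Trim30a (chr7:104409025-104465193, minus strand) had lowest, median and highest sham levels of 1.24, 2.27 and 3.599 CPM in E3/Abca1+/+ mice, 1.22, 1.98 and 2.55 CPM in E3/Abca1+/- mice, 1.502, 2.66 and 3.104 CPM in E4/Abca1+/+ mice and 1.98, 2.31 and 5.62 CPM in E4/Abca1+/- mice. After injury it had 4.02, 6.97 and 16.2 CPM in E3/Abca1+/+ mice, 5.32, 7.87 and 10.9 CPM in E3/Abca1+/- mice, 4.95, 7.12 and 16.6 CPM in E4/Abca1+/+ mice and 7.06, 14.4 and 18.3 CPM in E4/Abca1+/- mice. No overlap was seen in any genotype. The log2 fold changes were 1.86 ± 0.25, 2.05 ± 0.20, 1.89 ± 0.27 and 2.08 ± 0.27 (adjusted p from 1.75e-06 to 0.00023), and its near copy Trim30d, which could share reads with it, also rose (1.98 averaged over genotypes). Sham levels of Usp18 were 0.2202, 0.7396 and 1.23 CPM in E3/Abca1+/+ mice, 0.394, 0.903 and 1.17 CPM in E3/Abca1+/- mice, 0.599, 1.29 and 2.58 CPM in E4/Abca1+/+ mice and 0.783, 1.202 and 2.24 CPM in E4/Abca1+/- mice. Injured levels of Usp18 were 1.902, 3.02 and 6.49 CPM in E3/Abca1+/+ mice, 2.21, 3.17 and 4.34 CPM in E3/Abca1+/- mice, 3.02, 5.19 and 8.48 CPM in E4/Abca1+/+ mice and 1.602, 4.704 and 7.09 CPM in E4/Abca1+/- mice. Only in E4/Abca1+/- mice did the groups of Usp18 touch, with 7 of 8 injured mice above all sham mice, and the log2 fold changes were 2.16 ± 0.27, 1.84 ± 0.22, 1.97 ± 0.31 and 1.84 ± 0.27 (adjusted p from 5.84e-06 to 0.000391).

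Herc6, which attaches ISG15 to proteins in the mouse, showed no called change in any genotype. Its sham levels were 14.5, 16.5 and 19.5 CPM in E3/Abca1+/+ mice, 12.5, 15.3 and 16.97 CPM in E3/Abca1+/- mice, 12.8, 16.95 and 20.3 CPM in E4/Abca1+/+ mice and 12.8, 15.2 and 17.1 CPM in E4/Abca1+/- mice. The injured mice had 10.8, 14.9 and 24.05 CPM in E3/Abca1+/+ mice, 10.2, 14.6 and 16.96 CPM in E3/Abca1+/- mice, 12.03, 16.8 and 19.6 CPM in E4/Abca1+/+ mice and 14.1, 16.1 and 26.7 CPM in E4/Abca1+/- mice. The groups overlapped throughout. The log2 fold changes were -0.03 ± 0.12, -0.06 ± 0.11, -0.05 ± 0.13 and 0.21 ± 0.12, with adjusted p from 0.192 to 0.904, and the averaged effect was 0.02 ± 0.06.

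Among the 9 antiviral effectors, 8 were called higher in every genotype and Cmpk2 in E4/Abca1+/- mice alone. Ifit1 (1.66), Ifit2 (0.58) and Ifit3 (1.57) encode RNA-binding proteins that lie side by side on chromosome 19. Oasl2 (2.05) is a relative of the oligoadenylate synthetases, Rsad2 (1.76) encodes viperin and Bst2 (2.05) encodes tetherin, which holds budding virus at the cell surface. Ifitm2 (0.77) and Ifitm3 (1.73) block fusion of virus with the cell. Near copies rose too, with averaged effects of 1.28 for Ifit3b and 0.88 for Ifitm1, so reads shared with Ifit3 or with the Ifitm genes cannot be separated.

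Oasl2 (chr5:114896936-114912234, plus strand) had lowest, median and highest sham levels of 2.97, 4.22 and 5.85 CPM in E3/Abca1+/+ mice, 2.65, 3.52 and 5.53 CPM in E3/Abca1+/- mice, 2.39, 3.54 and 6.01 CPM in E4/Abca1+/+ mice and 2.62, 4.002 and 7.27 CPM in E4/Abca1+/- mice. After TBI its levels were 7.398, 14.5 and 28.8 CPM in E3/Abca1+/+ mice, 11.1, 14.1 and 16.9 CPM in E3/Abca1+/- mice, 6.897, 19.8 and 25.6 CPM in E4/Abca1+/+ mice and 9.23, 21.9 and 32.8 CPM in E4/Abca1+/- mice. Injured and sham mice were separate in all 4 genotypes. Log2 fold changes were 1.97 ± 0.23, 1.91 ± 0.15, 2.09 ± 0.27 and 2.24 ± 0.26 (adjusted p from 2.8e-07 to 0.000111). Bst2 (chr8:71534255-71537456, minus strand) had 1.76, 2.73 and 3.76 CPM in E3/Abca1+/+ mice, 2.15, 3.08 and 4.67 CPM in E3/Abca1+/- mice, 1.91, 2.36 and 4.41 CPM in E4/Abca1+/+ mice and 2.31, 4.23 and 5.74 CPM in E4/Abca1+/- mice in sham mice. Its injured levels were 6.76, 10.8 and 16.9 CPM in E3/Abca1+/+ mice, 7.61, 12.4 and 15.1 CPM in E3/Abca1+/- mice, 5.36, 11.8 and 20.7 CPM in E4/Abca1+/+ mice and 8.01, 20.5 and 25.7 CPM in E4/Abca1+/- mice. Again no injured mouse fell among the sham mice. Bst2 changed by 1.96 ± 0.20, 1.90 ± 0.19, 2.07 ± 0.29 and 2.27 ± 0.23 (adjusted p from 4.17e-07 to 0.000166).

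Cmpk2, a mitochondrial nucleotide kinase whose gene neighbours Rsad2, had small changes beside those of Rsad2, which ran from 1.39 to 2.07. It had lowest, median and highest sham levels of 26.5, 29.7 and 32.6 CPM in E3/Abca1+/+ mice, 26.6, 27.9 and 30.4 CPM in E3/Abca1+/- mice, 24.7, 27.5 and 31.7 CPM in E4/Abca1+/+ mice and 24.7, 26.2 and 31.8 CPM in E4/Abca1+/- mice. TBI levels were 28.1, 31.1 and 36.5 CPM in E3/Abca1+/+ mice, 26.3, 30.4 and 32.6 CPM in E3/Abca1+/- mice, 23.3, 30.7 and 36.8 CPM in E4/Abca1+/+ mice and 25.7, 31.2 and 34.9 CPM in E4/Abca1+/- mice. Groups overlapped in every genotype. The log2 fold changes were 0.07 ± 0.06, 0.11 ± 0.05, 0.08 ± 0.10 and 0.18 ± 0.07, called in E4/Abca1+/- mice alone (adjusted p = 0.0478), and that call was lost with DESeq2's size factors, in DESeq2's own test, with sex as a covariate, with thinned libraries and with TMM over the mice compared. In 12 of 15 fits that left out a mouse, 37 members were called higher in this genotype in place of 38.

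All 6 interferon-inducible GTPases rose in every genotype. They are the guanylate-binding proteins Gbp2 (2.19), Gbp3 (1.59) and Gbp7 (0.99), in a cluster on chromosome 3, and the immunity-related GTPases Igtp (1.21), Irgm1 (1.06) and Iigp1 (1.89), which act on the membranes around intracellular microbes. The related Irgm2 had an averaged effect of 1.10. Gbp2 (chr3:142620602-142638008, plus strand) had the largest injury effect of the 40 members. Its lowest, median and highest sham levels were 3.22, 3.78 and 5.04 CPM in E3/Abca1+/+ mice, 2.81, 3.45 and 5.26 CPM in E3/Abca1+/- mice, 3.704, 4.15 and 5.11 CPM in E4/Abca1+/+ mice and 3.56, 4.19 and 9.0 CPM in E4/Abca1+/- mice. In injured mice they were 12.3, 14.6 and 29.4 CPM in E3/Abca1+/+ mice, 11.2, 15.04 and 19.3 CPM in E3/Abca1+/- mice, 9.02, 18.3 and 27.3 CPM in E4/Abca1+/+ mice and 13.7, 25.95 and 43.7 CPM in E4/Abca1+/- mice. The lowest injured mouse lay above the highest sham mouse in each genotype. Log2 fold changes of Gbp2 were 2.18 ± 0.19, 2.07 ± 0.16, 2.04 ± 0.23 and 2.49 ± 0.24 (adjusted p from 6.03e-08 to 4.39e-05). Iigp1 had sham levels of 1.49, 2.07 and 2.61 CPM in E3/Abca1+/+ mice, 1.13, 1.204 and 2.44 CPM in E3/Abca1+/- mice, 1.38, 2.503 and 4.04 CPM in E4/Abca1+/+ mice and 1.17, 1.29 and 2.93 CPM in E4/Abca1+/- mice. Injured levels of Iigp1 were 3.17, 5.24 and 11.3 CPM in E3/Abca1+/+ mice, 3.47, 4.84 and 7.305 CPM in E3/Abca1+/- mice, 4.24, 7.699 and 13.6 CPM in E4/Abca1+/+ mice and 4.195, 7.83 and 18.5 CPM in E4/Abca1+/- mice. These groups did not overlap either, and the log2 fold changes were 1.58 ± 0.23, 1.78 ± 0.21, 1.73 ± 0.27 and 2.46 ± 0.30 (adjusted p from 7.27e-06 to 0.000432).

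The 7 other members rose in every genotype. Lgals3bp (2.18) encodes a secreted glycoprotein that binds galectins, Ifi27 (0.72) a mitochondrial and membrane protein, and Xaf1 (0.88) a factor that favours cell death. Samd9l (0.90) restricts viral translation, Rtp4 (1.51) is a receptor transporter family member, and Ifi35 (1.10) and Ifi44 (1.94) were named for their induction. Ifi27l2a, a relative of Ifi27, rose by 2.09. Lgals3bp (chr11:118392751-118402092, minus strand) had lowest, median and highest sham levels of 5.04, 6.07 and 7.797 CPM in E3/Abca1+/+ mice, 5.23, 7.38 and 9.54 CPM in E3/Abca1+/- mice, 5.22, 5.96 and 8.71 CPM in E4/Abca1+/+ mice and 5.38, 8.03 and 19.1 CPM in E4/Abca1+/- mice. After TBI it had 19.4, 28.03 and 46.8 CPM in E3/Abca1+/+ mice, 19.9, 29.97 and 31.9 CPM in E3/Abca1+/- mice, 17.4, 24.5 and 50.3 CPM in E4/Abca1+/+ mice and 24.9, 50.4 and 66.02 CPM in E4/Abca1+/- mice. The groups stayed apart in all genotypes, although sham mouse 2 of the E4/Abca1+/- group came close to the lowest injured mice. Log2 fold changes were 2.26 ± 0.17, 1.98 ± 0.13, 2.15 ± 0.22 and 2.34 ± 0.29 (adjusted p from 2.12e-08 to 2.41e-05). Ifi44, the scarcest member, had 0.374, 0.736 and 1.24 CPM in E3/Abca1+/+ mice, 0.225, 0.723 and 1.01 CPM in E3/Abca1+/- mice, 0.425, 0.842 and 1.902 CPM in E4/Abca1+/+ mice and 0.713, 1.23 and 2.36 CPM in E4/Abca1+/- mice in sham mice. It had 1.66, 2.98 and 4.96 CPM in E3/Abca1+/+ mice, 2.06, 2.49 and 3.17 CPM in E3/Abca1+/- mice, 2.51, 3.53 and 5.52 CPM in E4/Abca1+/+ mice and 2.29, 5.23 and 7.62 CPM in E4/Abca1+/- mice in injured mice. In E4/Abca1+/- mice 7 of 8 injured mice lay above all sham mice, and the other genotypes showed no overlap. Ifi44 changed by 2.03 ± 0.27, 1.81 ± 0.23, 2.04 ± 0.29 and 1.87 ± 0.30 (adjusted p from 1.23e-05 to 0.000214).

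**Figure D3:**
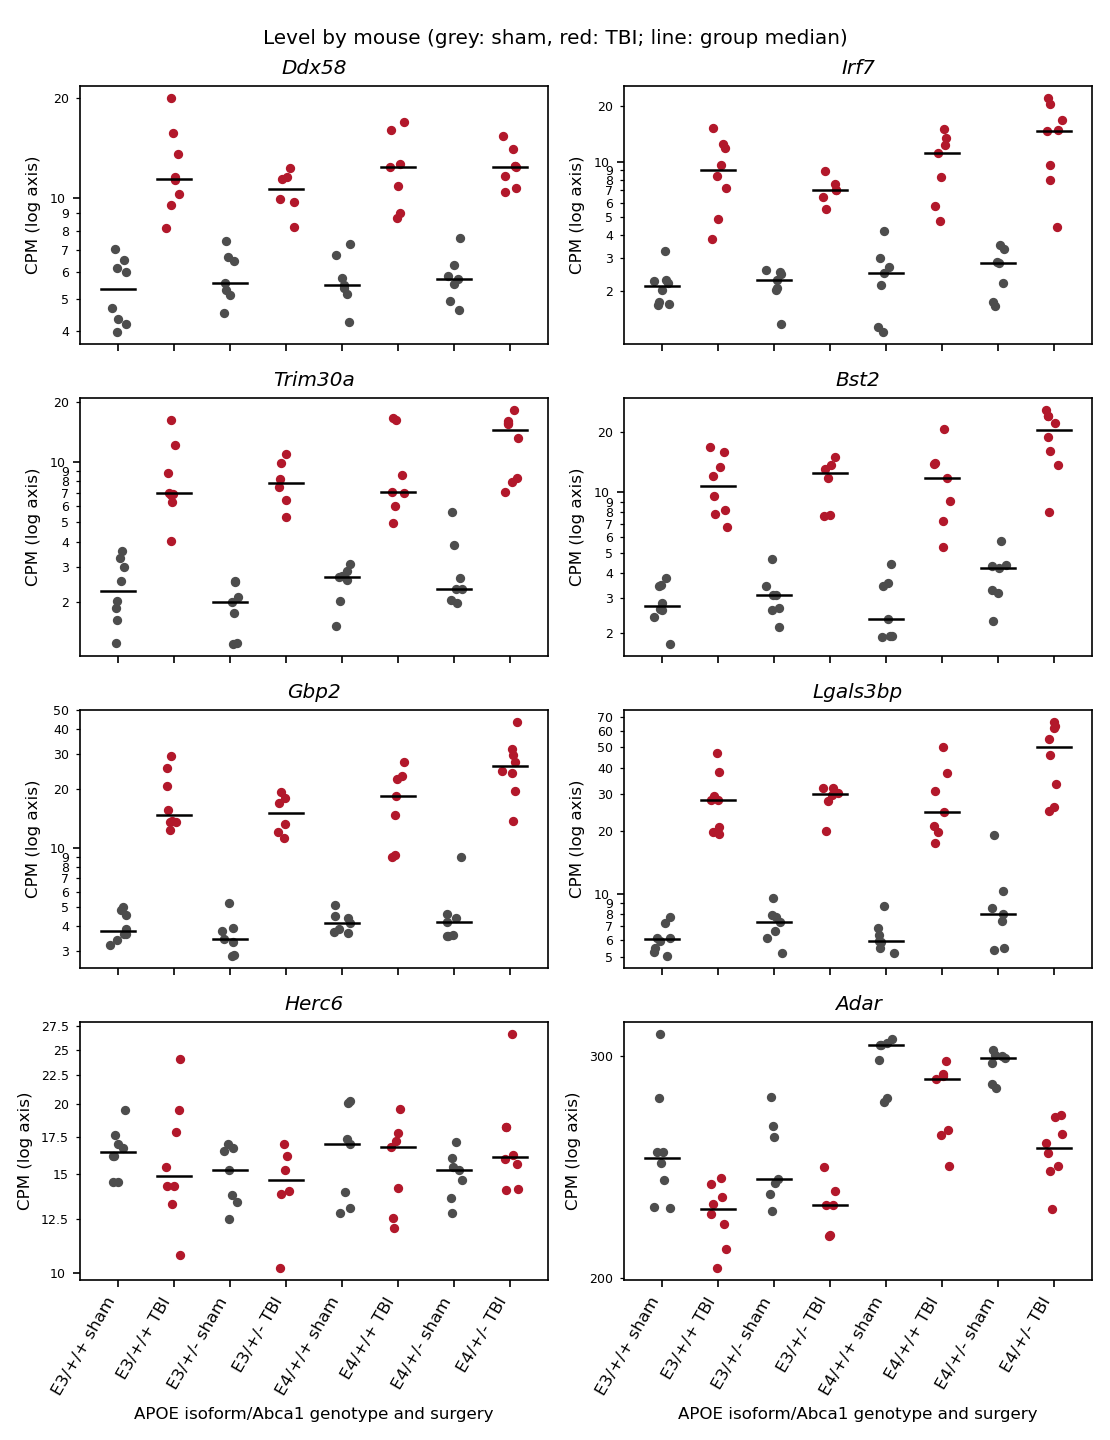
CPM (log axis) of 8 members in each mouse of the 8 groups of APOE isoform, Abca1 genotype and surgery, with sham mice in grey, TBI mice in red and the group median as a line. Ddx58, Irf7, Trim30a, Bst2, Gbp2 and Lgals3bp separate by injury in all 4 genotypes, Herc6 does not, and Adar is lower after TBI and higher in APOE4 mice.

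The rest of the pathway was examined through lists of related genes. The interferon genes themselves (7 were listed) and the lambda receptor Ifnlr1 were not analysed here. Of the 9 receptor and JAK-STAT genes with values, 7 rose in the averaged fit, against the background of 29%. The gamma receptor chain Ifngr1 rose by 0.90, Ifnar2, a chain of the type I receptor, by 0.52 and Stat3 by 0.50, whereas the kinase genes Jak1 (-0.03) and Jak2 (-0.04) were not called. Of 13 genes that sense nucleic acids or induce interferon, 12 rose, with a median log2 fold change of 0.93. Zbp1, a sensor of Z-form nucleic acids, rose by 3.35, Irf8 by 1.71, the RNA receptor Tlr7 by 1.60 and Tmem173 (STING) by 1.03, and Tbk1, the kinase that activates IRF3, was not called (-0.05). Of 7 negative regulators with values, 5 rose, among them Socs3 (0.90) and Samhd1 (0.49), and Pias1 fell by 0.11 on the log2 scale. Of 52 further interferon-stimulated genes with values, 48 rose and none fell, with a median of 1.52. Cxcl10, a chemokine that attracts T cells, had the highest value of that list (4.53), and Pml (0.06) and Ifit1bl1 (-0.01) were among the 4 that were not called.

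The second question was whether the APOE isoform mattered to the members. Among injured Abca1+/- mice 7 of 40 were higher in E4 than in E3, against 1.35% of all genes, and all 40 log2 fold changes were positive, with a median of 0.47 against 0.02 over all genes. The 7 were the GTPase genes Gbp2, Gbp3, Gbp7 and Irgm1, the transcription factor Irf1, and Ifi27 and Ifi35. At an unadjusted p under 0.05 there were 33 members, against 19.1% of all genes. In the other pairs of groups the medians were smaller, at 0.09 in Abca1+/+ sham, 0.15 in Abca1+/- sham and 0.04 in Abca1+/+ TBI mice. No member was called in Abca1+/+ sham mice (0.231% of all genes were higher), where 2 had an unadjusted p under 0.05, against 8.81% of all genes, and DESeq2's test called 1. Adar alone was called in Abca1+/- sham (2.66% of all genes) and in Abca1+/+ TBI mice (0.145%).

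Gbp3 showed the clearest isoform difference in injured Abca1+/- mice. Its lowest, median and highest levels were 10.2, 10.6 and 11.3 CPM in E3 and 11.4, 18.8 and 22.1 CPM in E4 mice. No E4 mouse overlapped with an E3 mouse. The same separation held for Gbp7, with 8.18, 10.1 and 10.6 CPM in E3 and 11.2, 13.4 and 18.9 CPM in E4 mice, and for no other member, that is 2 of 40 against 0.679% of all genes. Log2 fold changes were 0.73 ± 0.13 (adjusted p = 0.00831) for Gbp3 and 0.48 ± 0.12 (adjusted p = 0.0452) for Gbp7. Irgm1 had 14.6, 17.6 and 20.99 CPM in E3 and 18.99, 30.6 and 39.5 CPM in E4 mice, a log2 fold change of 0.70 ± 0.15 (adjusted p = 0.0199). Gbp2 had 11.2, 15.04 and 19.3 CPM against 13.7, 25.95 and 43.7 CPM, a log2 fold change of 0.83 ± 0.21 (adjusted p = 0.045). In both genes 7 of 8 E4 mice lay above all E3 mice. Irf1 differed by 0.46 ± 0.10 (adjusted p = 0.0289), with 9.702, 12.04 and 13.1 CPM in E3 and 11.9, 15.5 and 19.4 CPM in E4 mice. For Ifi35 the levels were 2.87, 3.899 and 4.595 CPM and 3.74, 7.11 and 8.68 CPM, a log2 fold change of 0.81 ± 0.17 (adjusted p = 0.0221). Ifi27 differed by 0.33 ± 0.08 (adjusted p = 0.0404), from 35.7, 37.7 and 45.1 CPM to 41.8, 48.9 and 60.1 CPM.

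The largest log2 fold changes of this comparison were in genes that were not called. Irf7 had 0.93 ± 0.28 (adjusted p = 0.0803) and Ifi44 had 0.93 ± 0.25 (adjusted p = 0.06). Stat2 (0.00 ± 0.05 (adjusted p = 0.99)) and Cmpk2 (0.01 ± 0.07 (adjusted p = 0.981)) were closest to 0. The number of members called depended on single mice. It ran from 1 to 18 when each of the 14 mice was left out, with 1 called without E3/Abca1+/- TBI mouse 2, 3 without E3/Abca1+/- TBI mouse 1 or 5 or without E4/Abca1+/- TBI mouse 3, 4 without E3/Abca1+/- TBI mouse 3 or 6 or without E4/Abca1+/- TBI mouse 1, 5 or 7, and 18 without E4/Abca1+/- TBI mouse 4.

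**Figure D4:**
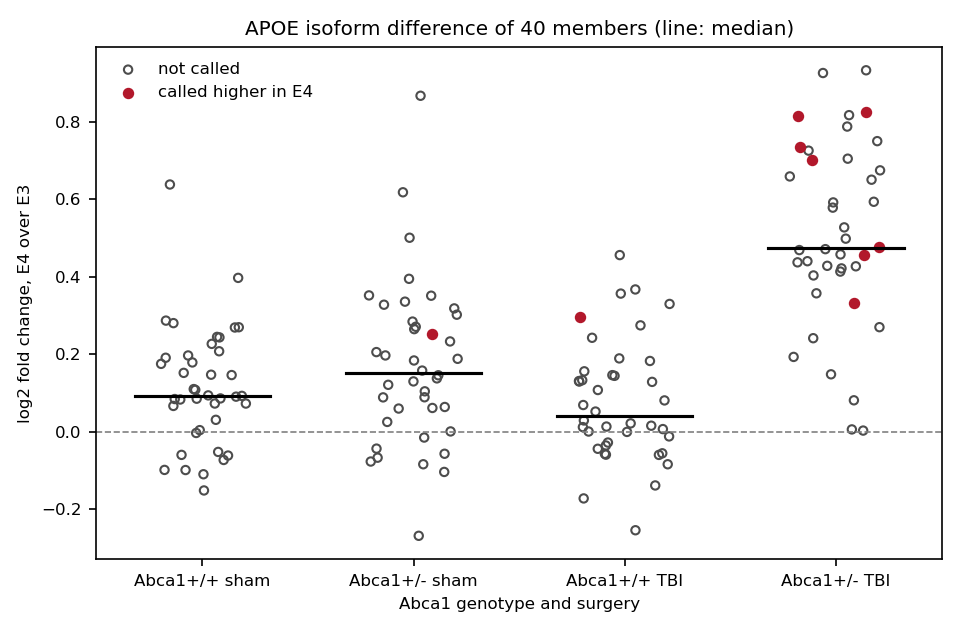
Log2 fold change of E4 over E3 (vertical axis) for each of the 40 members in the 4 pairs of Abca1 genotype and surgery, with called members filled in red, the others open and the median as a line. All 40 points lie above 0 in Abca1+/- TBI mice, where the median is 0.47, and the other medians lie between 0.04 and 0.15.

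Markers of microglia moved with this difference. Of the 12 microglial markers, Aif1, Cx3cr1 and P2ry12 were called higher in E4 than in E3 injured Abca1+/- mice, and the median log2 fold change of the list was 0.47, the same as that of the members. The summed level of these markers ran from 890 to 1289 CPM in E3 and from 1100 to 1834 CPM in E4 injured Abca1+/- mice. The 8 markers of blood monocytes and border macrophages summed to 73.8 to 354 CPM and 95.8 to 685 CPM in the same groups, with none called. The 4 markers of T and NK cells with values, of 12 listed, summed to 2.96 to 4.76 CPM in E3 and 4.22 to 17.8 CPM in E4 mice, with none called. The mean log2(CPM + 1) of the microglial markers was 5.97 in E3 and 6.37 in E4 injured Abca1+/- mice. With the microglial marker level of each mouse as a covariate, an alternative chosen after seeing the data, no member was called (smallest adjusted p = 0.211), the median log2 fold change was 0.14 and 32 of the 40 values were above 0. Calls over all genes in that fit are not given here, and the part of microglia in the isoform difference was not tested. With the covariate the fitted differences of the 7 members were 0.59 for Irgm1, 0.54 for Gbp3, 0.53 for Ifi35, 0.45 for Gbp2, 0.39 for Irf1, 0.22 for Ifi27 and 0.19 for Gbp7. Iigp1 (0.96) and Igtp (0.90) had the largest values under the covariate, and neither was called. Both genes were highest in E4/Abca1+/- TBI mouse 6, with 18.5 CPM of Iigp1 (next 10.5) and 29.4 CPM of Igtp (next 17.4). The microglial mean of that mouse was 6.07, in a group with a mean of 6.37. The part of this mouse in the fitted values was not tested.

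Averaged over the 4 pairs in a fit of all 58 mice, 12 members were higher in E4 than in E3 mice, against 8.03% of all genes, and none was lower. At an unadjusted p under 0.05 there were 23 members, all higher, against 28.2% of all genes in either direction. Adar had the smallest p, with a difference of 0.23 ± 0.03 (adjusted p = 8.33e-10), and was higher in E4 mice in each pair, with log2 fold changes from 0.15 in Abca1+/- TBI to 0.30 in Abca1+/+ TBI mice. In Abca1+/- sham mice its lowest, median and highest levels were 226, 239.7 and 278 CPM in E3 and 283, 299 and 304 CPM in E4 mice, with no overlap. Irgm1 followed at 0.37 ± 0.07 (adjusted p = 0.000287), then Ifi44 at 0.58 ± 0.15 and Gbp3 at 0.33 ± 0.09. The others were Usp18, Ifih1, Gbp7, Dtx3l, Ifi35, Irf7, Igtp and Ifit2. With libraries thinned to equal depth, 6 members were called.

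The third question was whether loss of an Abca1 copy changed the members. No member was called in any of the 4 comparisons of Abca1+/- with Abca1+/+ mice, by edgeR, where 2.27% of all genes were called in E3 sham, 0.0923% in E3 TBI, 0.870% in E4 sham and 1.36% in E4 TBI mice. DESeq2's test called none either, but it gave no adjusted p to 19 of the 40 members in E3 sham, 8 in E3 TBI and 32 in E4 sham mice. At an unadjusted p under 0.05 in edgeR there were 2 members in E3 sham mice, against 16.4% of all genes, 1 in E3 TBI mice against 9.18%, 6 in E4 sham mice against 15.9% and 12 in E4 TBI mice against 18.3%. The medians over the members were -0.02, -0.15, 0.02 and 0.32 in that order. In E4 TBI mice 35 of 40 values were positive. The microglial markers moved with them there, with a median log2 fold change of 0.41 over the list, 1 of 12 called higher, and a median summed level of 926 CPM in Abca1+/+ and 1455 CPM in Abca1+/- mice, and their part was not tested. Sp100 had the smallest p there, with 0.50 ± 0.16 (adjusted p = 0.123), and Bst2 the largest difference, with 0.73 ± 0.27 (adjusted p = 0.164). Bst2 had lowest, median and highest levels of 5.36, 11.8 and 20.7 CPM in E4/Abca1+/+ and 8.01, 20.5 and 25.7 CPM in E4/Abca1+/- injured mice. The 2 ranges overlapped. This comparison shares the E4/Abca1+/- injured mice with the isoform comparison above. In a single fit over 58 mice 8 members were called higher in it. That fit also called more of all genes higher than the fit of the compared groups alone, so the gain was not confined to the members. Whether the gain was larger among the members than over all genes was not tested. When each mouse was left out none to 2 members were called higher, 2 of them without E4/Abca1+/+ TBI mouse 6. Averaged over the 4 pairs, Lgals3bp (0.38) and Ifi27 (0.16) were higher in Abca1+/- mice, against 9.49% of all genes, and Dtx3l (-0.18) was lower, against 8.39%.

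Whether the injury response itself differed between genotypes was tested with interaction terms. No member and no other gene was called in any of the 4 interactions (0% of all genes in each, by edgeR). For isoform by injury in Abca1+/- mice, 38 of 40 members had a positive term, with a median of 0.35, and 11 had an unadjusted p under 0.05, against 6.36% of all genes. Dhx58 had the largest of them, 0.89 ± 0.30, then Ifi35 (0.55 ± 0.22), Sp100 (0.51 ± 0.22) and Ifitm2 (0.46 ± 0.20), and the smallest adjusted p was 0.718. For isoform by injury in Abca1+/+ mice the median was 0.00, and for Abca1 by injury it was -0.18 in E3 and 0.19 in E4 mice. At an unadjusted p under 0.05 these 3 terms had 0, 0 and 2 members, against 2.22%, 2.16% and 4.81% of all genes. DESeq2's test also called no member in the 4 interactions. Injury by sex over all mice called no member (0% of all genes). At an unadjusted p under 0.05 there were 4 of 40 members, against 7.47% of all genes, and the smallest adjusted p of a member was 0.342. These 4 terms were negative, the sign of a smaller rise with TBI in males. A count so near the share over all genes is not read here as a sex difference of the members.

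Finally, the members were compared from mouse to mouse. The mean of log2(CPM + 1) over the 40 members was 2.66 to 2.78 in the 4 sham groups. In the injured groups it was 3.66 ± 0.34 (SD, 8 mice) in E3/Abca1+/+, 3.56 ± 0.15 (6 mice) in E3/Abca1+/-, 3.74 ± 0.34 (7 mice) in E4/Abca1+/+ and 4.0 ± 0.29 (8 mice) in E4/Abca1+/- mice. After centring on the group means, the median Pearson correlation over the 780 pairs of members was 0.64 among 29 injured mice and 0.21 among 29 sham mice. These values share libraries, depth and tissue composition and are given as a description. In injured mice Oasl2 followed the other members most closely (r = 0.97), then Ifitm3 and Parp14, while Adar (r = -0.16), Cmpk2 (0.22) and Herc6 (0.48) followed least. The GTPases were the role with the highest median correlation within itself, 0.78. The genes outside the list with the highest correlation to the member mean over 58 mice were Oas1a (0.85), an oligoadenylate synthetase, Ifi209 (0.83), Unc93b1 (0.83), a chaperone of endosomal Toll-like receptors, H2-K1 (0.82), a class I antigen-presenting molecule, and Cxcl10 (0.82).

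All 12 microglial markers rose with injury in every genotype, with medians of 1.22, 1.16, 1.22 and 1.46. Their summed level ran from 412 to 671 CPM over the sham groups and from 773 to 1834 CPM in all injured groups. The markers of blood monocytes and border macrophages summed to 7.68 to 65.7 CPM in sham groups and 59.8 to 685 CPM after injury. All 8 astrocyte markers and 5 of 8 endothelial markers rose in the averaged fit, as did the T and NK cell markers Cd4, Cd8a and Lck, while Trbc2 fell. The summed level of these 4 had medians of 4.38 CPM in sham and 4.16 CPM in TBI mice of E3/Abca1+/+, 4.95 and 3.60 CPM in E3/Abca1+/-, 5.45 and 4.80 CPM in E4/Abca1+/+, and 5.40 and 6.39 CPM in E4/Abca1+/- mice. The part of these cell types in the injury effects was not tested. Among the 29 injured mice, with the group as a term, 31 of 40 members rose with the mean log2(CPM + 1) of the microglial markers, against 12.0% of all genes, and none fell. Rsad2 had the steepest slope, 1.88 ± 0.40 log2 units for each unit of the marker mean (adjusted p = 0.000894), and Trim30a the smallest p, with 1.77 ± 0.16 (adjusted p = 1.71e-09), followed by Lgals3bp at 1.55 ± 0.15 and Bst2 at 1.50 ± 0.21. Iigp1 (0.12 ± 0.40) and Igtp (0.17 ± 0.31) were not called, nor were Irgm1 (0.46 ± 0.21), Isg15 (0.89 ± 0.35) and Ifit1 (0.85 ± 0.33). The correlation of the member mean with the microglial mean, centred on groups, was 0.76 in 29 injured and 0.60 in 29 sham mice.

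**Figure D5:**
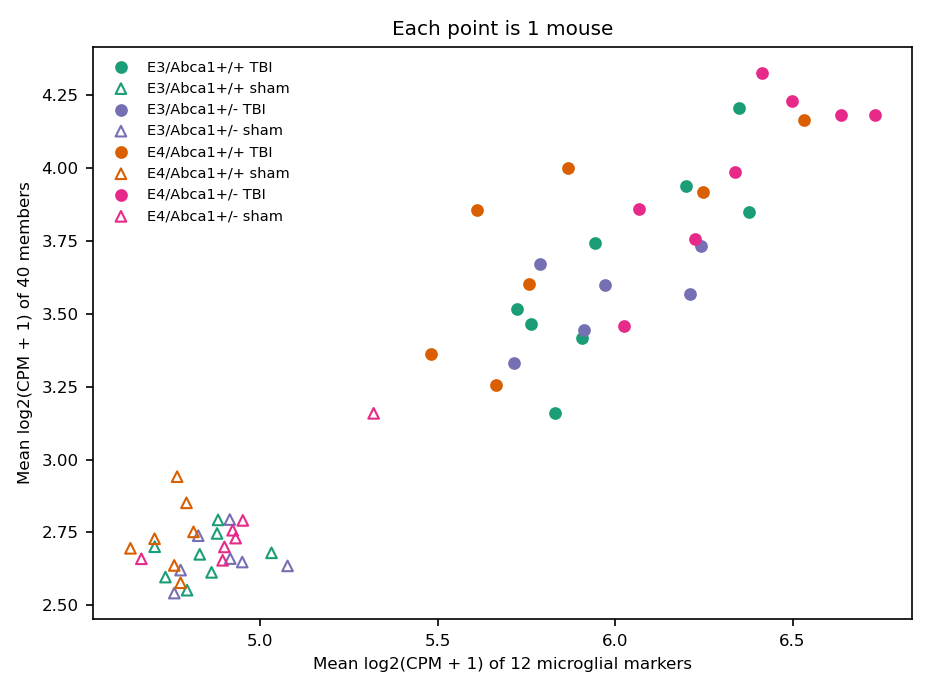
Mean log2(CPM + 1) of the 40 members (vertical axis) against that of 12 microglial markers (horizontal axis), 1 point a mouse, coloured by genotype, filled for TBI and open for sham. Every injured mouse lies to the right of every sham mouse, and the sham mouse nearest to them, at 3.16 on the vertical axis, is E4/Abca1+/- sham mouse 2.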

How the data were processed

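Bulk RNA of hippocampus and cortex from 58 mice was sequenced. The authors deposited whole-number read counts per gene, made with featureCounts of Subread 1.5.0 on genome build mm10 according to the submitters' processing notes, with no normalization. Strand use and annotation version are not given in the sources used here. The 2 blank lines of the table were removed, and 23 symbols that had turned into dates were restored from Entrez identifiers. No sample column was left unmapped. The 183 pairs of mice within groups held 0 pairs of identical libraries. P-values measure the spread between mice of a group.

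Counts were analysed with edgeR 4.0.16 (limma 3.58.1, R 4.3.3). Trimmed mean of M values (TMM) factors (0.954 to 1.038) and filterByExpr over 8 groups, which removed 0 of 15171 genes, were set over all 58 mice. Quasi-likelihood tests were fitted on the 2 groups compared, or on 4 groups for interactions and all 58 mice for averaged effects, with Benjamini-Hochberg adjustment over all genes and a threshold of 0.05. CPM used TMM factors, and log2 levels a pseudocount of 1. Exon lengths and gene coordinates came from GENCODE M21 (GRCm38) and promoters from RefSeq (GRCm38.p6), both strands searched. Levels, motifs and figures used Python 3.11.15, matplotlib 3.10.9, pandas 2.3.3, scipy 1.17.1 and numpy 2.4.6.

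The members and lists were chosen with earlier results of these data known. Mouse by mouse, the 2 members of each role with the largest averaged injury effect among those called are described, with any member called in no genotype. Adar, Cmpk2 and the members called between isoforms were given level by level after their values were seen. Alternatives were DESeq2 1.42.0 with its size factors or Wald test, other filters, sex as a covariate, a single fit, thinned libraries and single mice left out. TMM or filters over the compared mice, the microglial covariate, leaving out mice in the isoform comparison and alternatives of the averaged effects were chosen after seeing the data. On simulated counts for TBI against sham in E3/Abca1+/- mice, with 200 of 15171 genes changed, 94.8% of the 134 genes changed by at least 1 log2 unit were recovered, and 10 of 177 calls were false. For isoform by injury in Abca1+/- mice, also on 15171 genes, 89.6% of them were recovered. Of genes changed by less than 1 log2 unit, 60.6% and 47% were recovered in these comparisons, and all member terms of that interaction were below 1. A gene of the pathway lists is not reported here.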

Additional observations from a re-analysis of the deposited data

Results flagged for a closer look

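For 13 genes described mouse by mouse and for the member mean, 112 groups of 6 to 8 mice were searched for a single mouse far from the others, judged by its gap to the nearest mouse as a share of the range. Chance marks about 1 in 20 groups, and 11 of 112 were marked. In E4/Abca1+/- sham mouse 2 the mean log2(CPM + 1) over the 40 members was 3.16, with the next mouse at 2.79. The same mouse had 9.0 CPM of Gbp2 (next 4.59), 19.1 CPM of Lgals3bp (next 10.3), 2.93 CPM of Iigp1 (next 1.70) and 2.24 CPM of Usp18 (next 1.33). Each other marked mouse stood apart for a single gene of those searched. Igtp was not searched, and it was also highest in E4/Abca1+/- TBI mouse 6, at 29.4 CPM (next 17.4). Irf7 was high in E3/Abca1+/+ sham mouse 4 at 3.30 CPM (next 2.28), and Ifi44 in E4/Abca1+/+ sham mouse 6 at 1.90 CPM (next 0.862). Usp18 was low in E3/Abca1+/- sham mouse 6 at 0.394 CPM (next 0.879), and Lgals3bp in E3/Abca1+/- TBI mouse 1 at 19.9 CPM (next 27.7). Iigp1 reached 18.5 CPM in E4/Abca1+/- TBI mouse 6 (next 10.5), and Herc6 reached 26.7 CPM in E4/Abca1+/- TBI mouse 8 (next 18.2).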

How the results depend on the processing

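No paired analysis was made, because each library came from a different mouse, which had either TBI or sham surgery. Of the member log2 fold changes for TBI against sham under the alternatives, 1427 kept their direction and side of the threshold, 12 lost the call (Stat2, Cmpk2 and Dhx58), 1 gained it (Adar) and 0 turned. The filter of 1 CPM in 6 mice removed 0 genes, as did the main filter. Fits with that filter or with none therefore repeat the main fit, and their values among the 1427 could not change. Members higher after TBI numbered 37 to 38 in E3/Abca1+/-, 36 to 37 in E3/Abca1+/+, 37 to 38 in E4/Abca1+/- and 36 to 37 in E4/Abca1+/+ mice when each mouse was left out. Members lower numbered 0 to 1 in E3/Abca1+/+, 1 to 1 in E4/Abca1+/- and 0 to 0 in the other genotypes. DESeq2's Wald test called 1 member lower in E3/Abca1+/- mice (0 by edgeR). For E4 against E3 in Abca1+/- TBI mice the main fit called 7 members higher, against 1.35% of all genes. The Wald test called 18 members, the single fit 19, thinned libraries 4 and the microglial covariate 0. When each mouse was left out 1 to 18 were higher and 0 to 0 lower. Higher calls over all genes moved the same way, up under the Wald test and the single fit and down with thinned libraries. Shares of all genes under these alternatives are not given here, so the counts show how calls moved and not an excess over all genes. In Abca1+/+ sham mice the Wald test, sex as a covariate and the single fit each called 1 (0 by edgeR), and in Abca1+/- sham mice the Wald test and sex as a covariate each called 2 (1 by edgeR), with 6 members given no adjusted p by the Wald test. For Abca1+/- against Abca1+/+ in E4 TBI mice, the single fit called 8 higher and thinned libraries 1, with 0 to 2 higher and 0 to 0 lower when each mouse was left out. Over all genes the single fit there also called more higher than the main fit, and thinned libraries called fewer. Thinned libraries left 6 members higher in the averaged isoform effect (12 before) and 1 higher and 0 lower in the averaged Abca1 effect (2 and 1 before). With a pseudocount of 0.1 the rise of the member mean in E3/Abca1+/- mice was 1.07 (0.90 before). TMM factors over the compared mice alone moved the share of higher calls over all genes in E4/Abca1+/- mice from 60.8% to 52.1%, and the Wald test to 51.3%. Apart from thinning, which lowers depth by construction, and fits with fewer mice, the cause of these shifts was not tested. Usp18 and Ifi44 lay at or under 3 counts in 3 of 58 libraries each, all from Abca1+/+ sham mice.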
